A study of Homo sapiens with 8 samples.

Results

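The clustered protocadherins are 3 neighbouring families of cell-surface adhesion genes, alpha, beta and gamma, on the long arm of chromosome 5. Members were the protein-coding rows of the count table whose symbol reads PCDHA, PCDHB or PCDHG, an optional letter A to C, and a number. The rule found 53 of the 60646 genes in the table, 15 alpha, 16 beta and 22 gamma. A further row, PCDHA14, matched the pattern but is annotated as a pseudogene and was left out. All 53 lie on the plus strand of hg38, alpha from 140786136 to 141012347, beta from 141051135 to 141249365 and gamma from 141330571 to 141512981 (GENCODE 29). RNA was sequenced from MDA-MB-231 cells, an established line from a triple-negative breast cancer, grown in medium with 5% FBS and plated at about 50% confluency on the day before collection. The 4 control samples are labelled wild-type, and the 4 knockout samples, written DOT1L/+ KO in the labels, came from editing with a guide RNA that targets exon 1 of DOT1L. Neither the number of edited alleles is given, nor whether the edited cells were a pool or 1 clone, so the effect of the edit and the origin of the cells that carry it cannot be told apart. DOT1L is the methyltransferase of lysine 79 of histone H3.

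Clustered protocadherins are cadherin-like proteins that recognise copies of themselves on other cells and are best known from neurons, where each cell uses its own small set of them as an identity label. Each alpha and gamma member has its own promoter and its own large variable exon, which encodes the extracellular part and is spliced to constant exons that all members of the cluster share. Beta members consist of a single coding exon with no constant part. Most promoters carry a short conserved sequence element with the core CGCT, bound by CTCF, which together with cohesin brings a chosen promoter to distant enhancers. The last members of the alpha and gamma clusters, named C-type, differ from the others in sequence and are used more evenly between neurons.

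Promoter windows of 300 bases (250 before to 50 after the start, RefSeq, GRCh38.p14) were at hand for 47 of the 53 members. The word GNCGCTG, which holds the CGCT core, was chosen after looking at these windows and searched on both strands. It lay in 36 of the 47 members' windows, in all 36 on the gene's own strand. Among all 35116 promoter windows of that length 25.3% held it on either strand and 14.7% on the gene's own strand. By cluster the word was present in 6 of 13 alpha, 12 of 14 beta and 18 of 20 gamma members. The middle letter followed the family, with GTCGCTG in all 6 of those alpha members and GGCGCTG in all 12 of those beta members, while gamma members held GCCGCTG (12), GTCGCTG (6) or GACGCTG (2), and some of them more than 1 of these. It was present in 7 of 9 members that were higher in the knockout, 9 of 11 that were lower, 7 of 8 that did not pass and 13 of 19 that were not tested. Of those that were higher, 0 of 2 alpha, 5 of 5 beta and 2 of 2 gamma members held it. Of those that were lower, 3 of 4 beta and 6 of 7 gamma members did. PCDHA13, also higher, had no window. Since the word was chosen on these windows, the counts are a description and were given no test. Over all matches, the median distance from the word to the start was 46 bases in alpha (40 to 57), 62.5 in beta (-1 to 81) and 64 in gamma (-32 to 222). Negative distances lie past the start. Matches of PCDHGB1 and PCDHGC4 were counted against more than 1 start each. The stretches shown are 41 bases of the plus strand with the word in capitals and 17 bases on each side, and they set members that rose, members that fell and members that did not pass next to each other. The 5 beta members that were higher in the knockout were PCDHB4 (chr5:141121720-141121760), PCDHB5 (chr5:141135176-141135216), PCDHB8 (chr5:141177774-141177814), PCDHB16 (chr5:141182307-141182347) and PCDHB9 (chr5:141187071-141187111).
PCDHB4: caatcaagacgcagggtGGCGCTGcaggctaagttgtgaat
PCDHB5: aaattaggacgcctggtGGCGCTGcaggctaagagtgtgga
PCDHB8: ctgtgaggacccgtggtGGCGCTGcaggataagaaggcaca
PCDHB16: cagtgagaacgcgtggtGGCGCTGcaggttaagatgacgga
PCDHB9: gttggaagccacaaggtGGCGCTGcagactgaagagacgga

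Of the beta members that were lower, PCDHB2 (chr5:141094541-141094581), PCDHB13 (chr5:141213862-141213902) and PCDHB15 (chr5:141245311-141245351) held the same word. PCDHB14 held none, and PCDHB11 was without a window. The word was also in PCDHB10 (chr5:141192296-141192336) and PCDHB12 (chr5:141208640-141208680), which did not pass the test.
PCDHB2: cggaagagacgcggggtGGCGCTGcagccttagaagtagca
PCDHB13: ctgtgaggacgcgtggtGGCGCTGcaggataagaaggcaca
PCDHB15: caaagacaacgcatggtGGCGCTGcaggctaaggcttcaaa
PCDHB10: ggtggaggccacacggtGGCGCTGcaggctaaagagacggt
PCDHB12: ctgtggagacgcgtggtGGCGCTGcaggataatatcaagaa

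Gamma members are shown from both directions, PCDHGA4 and PCDHGB5 higher, PCDHGA9 and PCDHGA10 lower, with PCDHGB4, which was too low to be tested. Their stretches lie at PCDHGA4 (chr5:141354957-141354997), PCDHGA9 (chr5:141402711-141402751) and PCDHGA10 (chr5:141412928-141412968), with those of the others given after them.
PCDHGA4: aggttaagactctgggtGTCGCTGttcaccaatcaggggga
PCDHGB5: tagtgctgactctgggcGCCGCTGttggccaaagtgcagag
PCDHGB4: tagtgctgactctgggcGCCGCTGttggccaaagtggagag
PCDHGA9: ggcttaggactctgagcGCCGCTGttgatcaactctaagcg
PCDHGA10: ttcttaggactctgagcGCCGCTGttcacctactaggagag

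Among all pairs of such stretches, 2 pairs differed at no more than 3 of 41 bases, and each differed at 1. PCDHB8 (chr5:141177774-141177814) and PCDHB13 (chr5:141213862-141213902) differ by C11G, counted from the 5′ end of the stretch with the base of PCDHB8 named ahead of the position. PCDHGB4 (chr5:141387614-141387654) and PCDHGB5 (chr5:141397860-141397900) differ by G37C, with the base of PCDHGB4 named ahead. PCDHB8 was higher and PCDHB13 lower in the knockout, and PCDHGB5 was higher while PCDHGB4 had 23 wild-type and 21 knockout counts. The 2 C-type alpha members held no GNCGCTG in their windows, though the shorter core CGCT occurs in both. Their windows are printed whole, since their changes were among the largest, beside that of PCDHB5, the beta member that rose most. They lie at chr5:140926049-140926348, chr5:140966226-140966525 and chr5:141134956-141135255 on the plus strand. A match of the word is a description of the letters and not a measurement of binding.
PCDHAC1: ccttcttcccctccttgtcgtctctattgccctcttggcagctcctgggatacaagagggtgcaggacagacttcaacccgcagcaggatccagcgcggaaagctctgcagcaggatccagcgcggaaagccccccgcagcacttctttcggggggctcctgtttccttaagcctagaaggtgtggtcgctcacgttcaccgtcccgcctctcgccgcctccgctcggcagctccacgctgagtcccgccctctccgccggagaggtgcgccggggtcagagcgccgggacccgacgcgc
PCDHAC2: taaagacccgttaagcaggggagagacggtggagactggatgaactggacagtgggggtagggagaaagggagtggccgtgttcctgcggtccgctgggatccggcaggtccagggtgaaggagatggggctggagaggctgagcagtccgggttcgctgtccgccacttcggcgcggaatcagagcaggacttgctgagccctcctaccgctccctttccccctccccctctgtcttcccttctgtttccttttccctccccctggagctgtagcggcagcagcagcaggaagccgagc
PCDHB5: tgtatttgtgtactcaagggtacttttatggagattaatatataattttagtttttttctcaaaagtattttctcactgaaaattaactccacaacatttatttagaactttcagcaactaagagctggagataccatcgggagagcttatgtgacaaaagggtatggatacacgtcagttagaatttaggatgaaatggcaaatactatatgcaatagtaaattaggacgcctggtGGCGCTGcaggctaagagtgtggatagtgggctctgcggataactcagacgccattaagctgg

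Counts assigned to genes ran from 40103408 to 50031412 per library, so 1 count stood for 0.0198 to 0.0250 CPM (counts per 1000000 counts of a library, with library sizes scaled by trimmed means), and most members lay close to the limit of counting. DOT1L stood at 109 ± 8.52 CPM in wild-type and 84.7 ± 5.90 CPM in knockout samples (SD, n = 4 each), with a log2 change of -0.37 (SE 0.06, adjusted p = 2.83e-05), and the edit itself is not visible in a count per gene. Of 6 markers of this mesenchymal-like line, including VIM, CD44 and AXL, all were expressed, 2 higher and 3 lower in the knockout, with summed levels of 6167 to 6901 CPM in wild-type and 6928 to 7261 CPM in knockout libraries. Of 7 luminal epithelial markers 4 rose and 1 fell among 5 tested, with summed levels of 647 to 721 and 868 to 1053 CPM. Of 5 fibroblast markers 1 rose among 2 tested (10.8 to 19.5 and 24.0 to 29.5 CPM), and of 4 leukocyte markers 1 rose among 2 tested (0.443 to 0.731 and 0.773 to 1.26 CPM). Among all tested genes 23.9% rose and 23.6% fell. The 4 samples of a group are not said to be separate cultures, and the spread behind each p-value may therefore be technical only. The part of these markers in the results was not tested. In bulk RNA a change in the share of cells that use a gene and a change in RNA per cell cannot be told apart.

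Counts were found for all 53 members, and 31 passed the filter on low counts, 3 alpha, 13 beta and 15 gamma. Of these 31, 10 were higher and 12 lower in the knockout at an adjusted p below 0.05 (edgeR's quasi-likelihood test, adjusted over all 19877 tested genes), and 9 did not pass. Over all tested genes 23.9% were higher, 23.6% lower and 47.6% either. Among genes with a mean level within the range of the tested members, 25.3% were higher and 11.3% lower. The numbers of calls were given no test against these shares. The split over all genes moved with the scaling, from 4759 higher and 4699 lower to 6021 and 3705 with upper-quartile scaling and 5898 and 3748 with library totals, while the members gave 11 higher and 10 lower with either. At a change of at least 2-fold 8 members were higher and 6 lower, where 6.72% and 2.64% of all tested genes were. Among all genes with a mean level within the range of the tested members, 12.8% rose and 3.96% fell by that much. Of the tested members, 5 (PCDHA13, PCDHAC1, PCDHAC2, PCDHB4 and PCDHB8) reached the filter's level of 0.213 CPM in knockout libraries alone and could hardly have been tested without differing, so these shares are a description. PCDHGB5 reached that level in 1 wild-type and 4 knockout libraries, and PCDHB11 in 4 wild-type and 1 knockout library. Both thus passed the filter mainly through the group where they were higher. In part this also holds for PCDHB5, which reached the level in 2 wild-type and 4 knockout libraries. The same is so for PCDHGA2, with 3 wild-type libraries and 1 knockout library. The median log2 change of the 31 was -0.26, against 0.00 over all tested genes. Groups did not overlap for 11 of the 31 with the knockout higher and 9 with it lower, against 21.3% and 22.1% of all tested genes, or 43.4% in either direction.

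**Figure D1:**
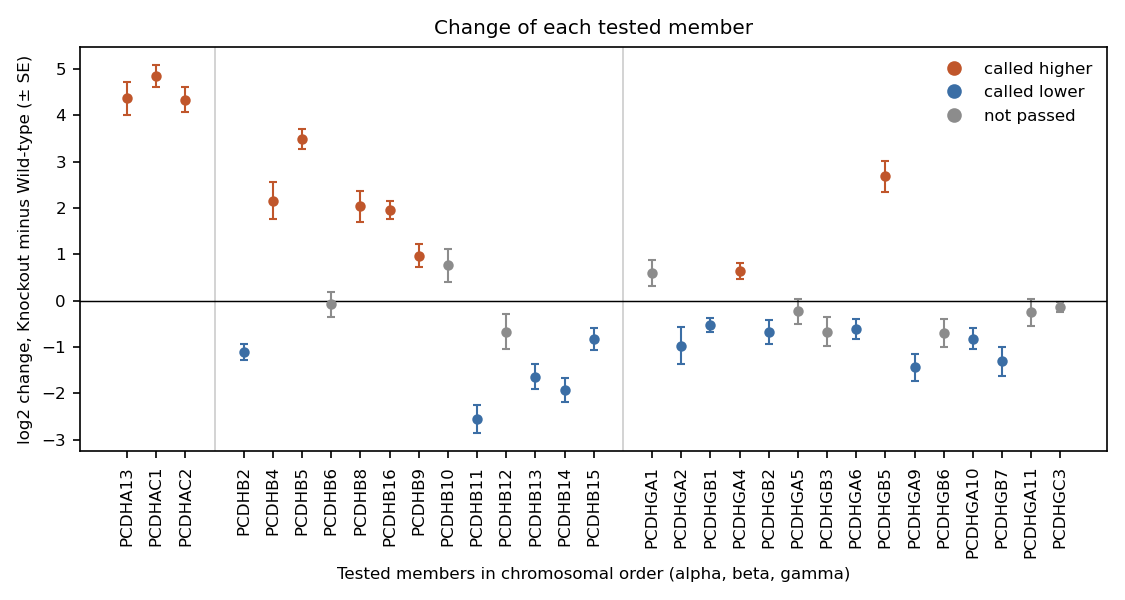
Log2 change of knockout against wild-type, with its standard error, for the 31 tested members in chromosomal order, with vertical lines between the alpha, beta and gamma clusters; orange points were called higher, blue points lower, and grey points did not pass. The 3 alpha members lie above 4, the beta members run from 3.48 down to -2.56, and most gamma members lie between 0 and -1.5.

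The alpha cluster was nearly silent in wild-type cells and was expressed in the knockout, most strongly from its last 3 members. Summed over 15 members, wild-type libraries held 13, 20, 13 and 17 counts (replicates 1, 2, 3 and 5) and knockout libraries 323, 331, 317 and 418. On the scaled level this was 0.363 ± 0.10 against 7.11 ± 0.798 CPM (SD, n = 4 each), and the ratio of the group counts, scaled for library size, was 19.9 with a 95% counting interval of 15.4 to 26.0. No knockout library came near a wild-type library. Such sums over members were given no test, and the intervals cover counting error only.

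PCDHAC1 (ENSG00000248383, 140926369 to 141012344), a C-type member, had the largest change of the 31 members tested. Its counts were 5, 4, 3 and 4 in wild-type replicates 1, 2, 3 and 5, and 121, 127, 136 and 140 in the knockout. The level went from 0.0921 ± 0.0230 to 2.69 ± 0.163 CPM (SD, n = 4 each), with a log2 change of 4.84 (SE 0.23, adjusted p = 5.61e-13). The groups lay far apart, and the 4 knockout libraries lay close together. PCDHAC2 (ENSG00000243232, 140966235 to 141012344), the other C-type member and the last before the constant exons, had 3, 7, 2 and 4 counts in wild-type and 102, 89, 84 and 95 in the knockout. It rose from 0.0938 ± 0.0573 to 1.90 ± 0.135 CPM, with a log2 change of 4.34 (SE 0.28, adjusted p = 4.31e-11). PCDHA13 (ENSG00000239389, 140882208 to 141012344), the last of the ordinary alpha members and the neighbour of PCDHAC1, had 1, 5, 3 and 2 counts against 67, 56, 50 and 90. It rose from 0.0639 ± 0.0439 to 1.34 ± 0.322 CPM, with a log2 change of 4.37 (SE 0.35, adjusted p = 1.48e-09). The 3 genes follow each other on the chromosome, and in each the lowest knockout library lay far above the highest wild-type library. The closest pair was that of PCDHA13, with 1.04 CPM in knockout replicate 3 and 0.125 CPM in wild-type replicate 2.

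The remaining ordinary alpha members, PCDHA1 to PCDHA12, lay below the filter. Together they held 4, 4, 5 and 7 counts in wild-type replicates 1, 2, 3 and 5, and 33, 59, 47 and 93 in the knockout, a scaled ratio of 10.5 (95% counting interval 6.61 to 17.4). All 4 knockout libraries lay above all 4 wild-type libraries, with replicate 5 the highest. PCDHA4, an ordinary member, had 4 wild-type and 61 knockout counts, which gives a ratio of 13.7 (5.10 to 52.0). PCDHA11 and PCDHA6 were at 0 in each wild-type library and had 24 and 20 counts over the knockout group. Against a floor of 3 counts over the group this was 7.21-fold and 6.01-fold higher, and the 95% counting intervals reached down to 5.42 and 4.45. PCDHA1 had 2 and 17 counts, a ratio of 7.66 (1.82 to 68.4), and PCDHA2, also an ordinary member, 1 and 1. Low counts were thus found at most of the ordinary members in the knockout, and no difference was detectable at PCDHA2 at this depth. Words of 50 bases shared with another gene, outside the constant exons, made up 24.0% of PCDHA6, 24.8% of PCDHA7, 27.4% of PCDHA8 and 19.7% of PCDHA10, against 2.64% of PCDHA4 and 7.58% of PCDHA11, so part of the counts of the former may be reads of other genes. With a lenient filter of at least 10 counts over the 8 libraries, 12 alpha members were tested and 10 were higher, where 19.5% of all genes tested under that filter were. The added members had at most 7 wild-type counts and reached the filter through the knockout, so they could hardly have been tested without being higher, and nothing is read from this share. The 7 added calls were PCDHA1, PCDHA4, PCDHA6, PCDHA8, PCDHA10, PCDHA11 and PCDHA12, with adjusted p from 3.57e-05 (PCDHA4) to 0.0415 (PCDHA12). Of the 11 knockout counts of PCDHA8, 9 came from replicate 5, and PCDHA10 had 0, 13, 8 and 5 counts in knockout replicates 1, 2, 3 and 5, so these calls lean on few libraries. PCDHA3 (adjusted p = 0.0530) and PCDHA7 (0.0524) did not pass under that filter.

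**Figure D2:**
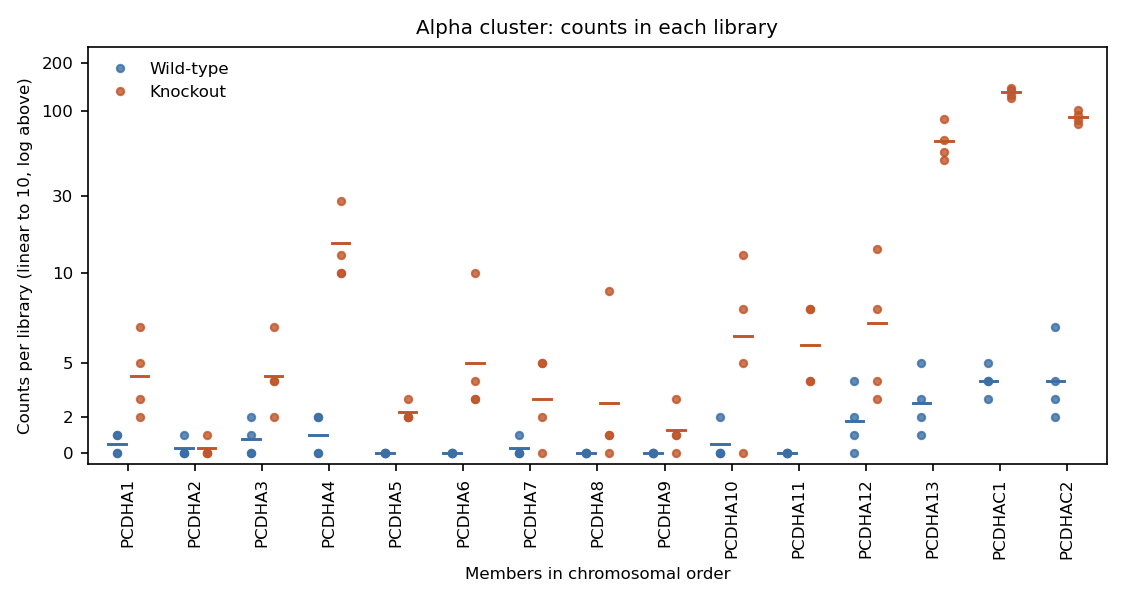
Counts of each alpha member in each library, in chromosomal order; points are libraries (blue wild-type, orange knockout), short bars are group means, and the axis is linear up to 10 and logarithmic above. PCDHA13, PCDHAC1 and PCDHAC2 reach 50 to 140 counts in the knockout and stay at or below 7 in wild-type.

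The counts of alpha and gamma members were read as those of their variable exons, on the following measurements, most of them from the alpha cluster. In GENCODE 29 each alpha member has between 2488 and 10574 exonic bases of its own, which no other annotated gene on the same strand covers, beside the shared constant exons. PCDHA2 was at 0 in 6 of 8 libraries while PCDHAC1 had up to 140 counts, so reads on the constant exons were not added to each alpha member. The lowest gamma member held 1 to 6 counts in every library, and whether reads on constant exons added to it was not tested. With each library's lowest gamma count subtracted, the log2 change was -1.99 for PCDHGA9 and 3.24 for PCDHGB5. The sources used here do not give how such reads were handled. Annotated antisense genes overlap several members. The antisense gene over PCDHA13 (ENSG00000278901) had 3 wild-type and 22 knockout counts, the one over PCDHA12 (ENSG00000278915) 1 and 22, and the one over PCDHA10 (ENSG00000278946) 0 and 9. The members themselves had 11 and 263 (PCDHA13), 7 and 29 (PCDHA12) and 2 and 26 (PCDHA10). The strand setting of the counting is not given, so part of the low signal of PCDHA12 and PCDHA10 cannot be told apart from that of the antisense partner.

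Because clustered protocadherins are best known from neurons, 12 neuronal genes were measured beside them. Of 4 tested, 3 were higher in the knockout and 0 lower, where 23.9% and 23.6% of all tested genes were. The summed level of all 12 ran from 9.39 to 12.4 CPM in wild-type and from 14.9 to 16.9 CPM in knockout libraries. RBFOX3, a splicing factor of mature neurons, rose from 0.828 ± 0.408 to 3.68 ± 0.574 CPM (SD, n = 4 each, adjusted p = 7.25e-06), and SYT1, a synaptic vesicle protein, from 1.88 ± 0.160 to 3.59 ± 0.923 CPM (adjusted p = 0.000145). MAP2, a microtubule protein of neurons, rose from 1.52 ± 0.270 to 2.19 ± 0.354 CPM (adjusted p = 0.0106). TUBB3, the most abundant of the 12 in both groups, did not pass (log2 change -0.104, adjusted p = 0.395). Its level ran from 5.77 to 7.31 CPM in wild-type and from 5.67 to 6.36 CPM in knockout libraries. The neuronal markers ELAVL4 and GAP43 were at 0 in each library, and DCX, STMN2 and NEFL had 0 counts in wild-type and 4, 3 and 2 in the knockout. The part of these genes in the alpha result was not tested.

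The beta cluster changed its mix more than its total. Summed over 16 members, wild-type replicates 1, 2, 3 and 5 stood at 8.65, 9.71, 9.76 and 9.34 CPM and knockout replicates at 9.99, 10.7, 11.8 and 13.9 CPM. The groups did not overlap, but the ratio of the sums was 1.24 (95% counting interval 1.16 to 1.32), small beside the changes of single members. Without PCDHB5 and PCDHB16, left out here after their values were seen, the same sum was 8.26 ± 0.319 CPM in wild-type and 5.54 ± 0.842 CPM in the knockout (SD, n = 4 each). Of 13 tested beta members 5 were higher, 5 lower and 3 did not pass, where 23.9% and 23.6% of all tested genes were higher and lower. In chromosomal order PCDHB16 lies between PCDHB8 and PCDHB9. The 5 that were higher (PCDHB4, PCDHB5, PCDHB8, PCDHB16 and PCDHB9) all lie before PCDHB11 in the cluster, and of the 5 that were lower, 4 are PCDHB11 itself and the later PCDHB13, PCDHB14 and PCDHB15, with PCDHB2 the exception near the start. This order is a description of these members and was given no test.

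PCDHB5 (ENSG00000113209, 141135218 to 141138625) had the largest rise of the cluster. Wild-type replicates 1, 2, 3 and 5 stood at 0.189, 0.20, 0.296 and 0.240 CPM and knockout replicates at 2.30, 2.48, 2.40 and 3.33 CPM. Replicate 5 was the highest knockout library and the groups lay far apart, with a log2 change of 3.48 (SE 0.22, adjusted p = 3.19e-11). PCDHB16 (ENSG00000272674, 141181399 to 141186399) became the most abundant beta member by CPM. Its level was 0.448, 0.976, 0.929 and 1.2 CPM in wild-type and 3.02, 3.09, 3.68 and 3.92 CPM in knockout replicates, a log2 change of 1.96 (SE 0.19, adjusted p = 5.73e-08). Wild-type replicate 1 was the lowest library by some distance, and the groups did not overlap.

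PCDHB4 and PCDHB8 rose from near the limit of counting. PCDHB4 stood at 0.0707, 0.150, 0.0422 and 0.174 CPM in wild-type and 0.571, 0.316, 0.439 and 0.634 CPM in knockout replicates 1, 2, 3 and 5 (adjusted p = 0.000117, log2 change 2.15). PCDHB8 (ENSG00000120322) stood at 0.0943, 0.10, 0.148 and 0.152 CPM in wild-type and 0.449, 0.505, 0.668 and 0.456 CPM in knockout replicates (adjusted p = 2.83e-05, log2 change 2.03). In both, all knockout libraries lay above all wild-type libraries. PCDHB9 rose less, from 0.477 ± 0.0990 to 0.936 ± 0.275 CPM (SD, n = 4 each), with a log2 change of 0.97 (adjusted p = 0.00316). PCDHB10, the next gene, stood at 0.258 ± 0.0670 and 0.434 ± 0.192 CPM and did not pass (adjusted p = 0.0817, log2 change 0.76), but passed without knockout replicate 1 (adjusted p = 0.0184).

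PCDHB11 (ENSG00000197479, 141199582 to 141203779) had the largest fall of all tested members. Wild-type replicates 1, 2, 3 and 5 stood at 1.08, 0.701, 0.887 and 1.24 CPM and knockout replicates at 0.122, 0.126, 0.251 and 0.159 CPM. The log2 change was -2.56 (SE 0.30, adjusted p = 3.34e-07), and the groups did not overlap. PCDHB14 fell from 0.872, 0.926, 0.929 and 1.28 CPM to 0.224, 0.210, 0.230 and 0.376 CPM (adjusted p = 2.64e-06, log2 change -1.93), with replicate 5 the highest of its group on both sides. PCDHB13 (ENSG00000187372) fell from 0.542, 0.976, 1.10 and 1.05 CPM to 0.224, 0.295, 0.292 and 0.357 CPM (adjusted p = 3.53e-05, log2 change -1.64). Its element stretch differs from that of PCDHB8 by the single base given above, and the 2 genes moved in opposite directions.

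PCDHB2 (ENSG00000112852, 141094578 to 141098703) was the most abundant beta member of wild-type cells by CPM and fell. Its level was 2.81, 2.95, 2.53 and 1.87 CPM in wild-type and 0.999, 1.12, 1.19 and 1.37 CPM in knockout replicates, a log2 change of -1.11 (SE 0.17, adjusted p = 1.14e-05). The lowest wild-type library, replicate 5, still lay above the highest knockout library, also replicate 5. PCDHB15, the last gene of the cluster, fell from 0.804 ± 0.140 to 0.453 ± 0.0895 CPM (adjusted p = 0.00715, log2 change -0.82). PCDHB6 stood at 0.384 ± 0.0754 and 0.365 ± 0.0154 CPM and PCDHB12 at 0.308 ± 0.141 and 0.194 ± 0.0620 CPM, with adjusted p = 0.828 and 0.152. PCDHB1, PCDHB3 and PCDHB7 were too low to be tested, with 0 and 1, 37 and 28, and 25 and 23 counts over the wild-type and knockout groups.

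Reads of near-identical members could have been shared in the counting. Of all words of 50 bases in PCDHB8 transcripts 46.0% also occur in another annotated gene, 30.5% in PCDHB13, the highest share among beta members. For PCDHB10 this was 31.0% and for PCDHB9 26.0%, while it was 9.57% for PCDHB5 and 9.24% for PCDHB11. Over the cluster the median was 13.2%. A processed transcript on the same strand that overlaps PCDHB9 and PCDHB16 (ENSG00000279068) had 4 wild-type and 20 knockout counts, against 155 and 669 for PCDHB16. For PCDHB13 it was 21.1%, most of it shared with PCDHB8 (16.0%). Counts of PCDHB8, PCDHB9, PCDHB10 and PCDHB13 are therefore less certain than those of PCDHB5 and PCDHB11.

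**Figure D3:**
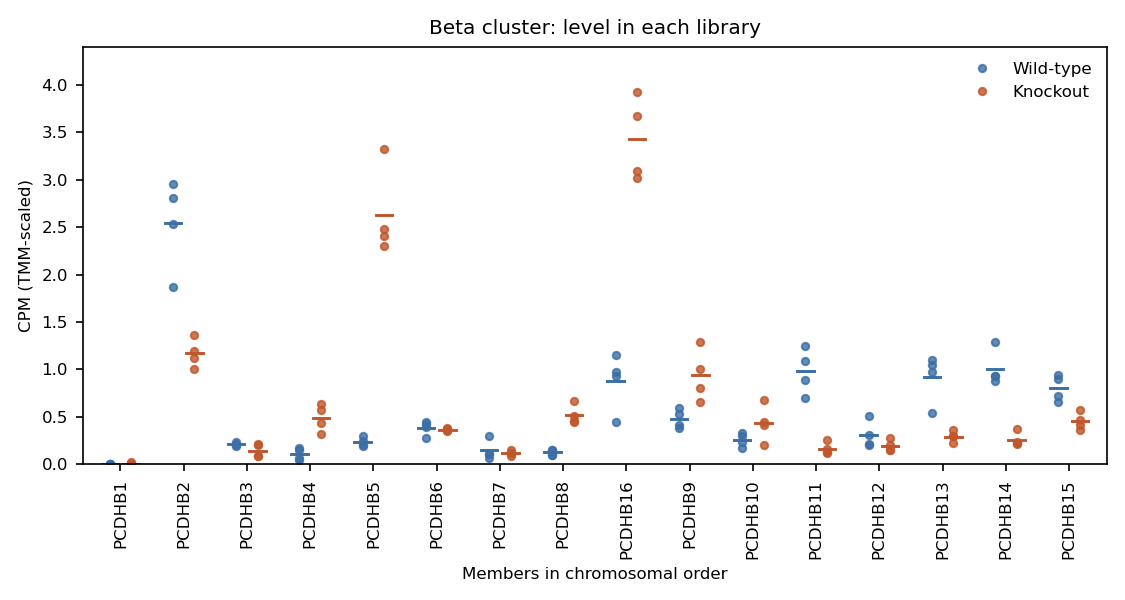
Level (CPM, linear axis from 0) of each beta member in each library, in chromosomal order; points are libraries (blue wild-type, orange knockout) and short bars are group means. PCDHB2 leads in wild-type at 1.87 to 2.95 CPM, PCDHB16 and PCDHB5 lead in the knockout, and PCDHB11, PCDHB13 and PCDHB14 drop.

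The gamma cluster was the most abundant of the 3 in wild-type cells, and its total was lower in 3 of the 4 knockout libraries than in any wild-type library. Summed over 22 members, wild-type replicates 1, 2, 3 and 5 stood at 17.3, 17.9, 16.6 and 17.2 CPM and knockout replicates at 12.7, 14.6, 14.7 and 17.3 CPM. The groups overlapped through knockout replicate 5, and the ratio of the sums was 0.862 (95% counting interval 0.819 to 0.908). Of 15 tested gamma members 2 were higher, 7 lower and 6 did not pass. The shares over all tested genes were 23.9% higher and 23.6% lower. By subfamily, the sum of the 7 PCDHGB genes went from 5.63 ± 0.323 to 4.25 ± 0.884 CPM, that of the 12 PCDHGA genes from 5.91 ± 0.736 to 5.31 ± 0.523 CPM, and that of the 3 C-type genes from 5.71 ± 0.314 to 5.27 ± 0.578 CPM (SD, n = 4 each).

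PCDHGB5 (ENSG00000276547, 141397987 to 141512979) stood out from its neighbours by its rise. Wild-type replicates 1, 2, 3 and 5 stood at 0.118, 0.150, 0.0422 and 0.218 CPM and knockout replicates at 0.714, 0.947, 0.731 and 1.03 CPM. The groups did not overlap, and the log2 change was 2.68 (SE 0.33, adjusted p = 9.11e-07). PCDHGA8 and PCDHGA9, the genes on its left and right, had 20 and 36 counts (not tested) and a fall, and PCDHGB4, with the element stretch that differs at 1 base, stayed at 0.128 ± 0.0475 and 0.107 ± 0.0587 CPM (not tested). Outside the constant exons, words of 50 bases shared with another gene made up 19.6% of PCDHGB5 and 58.0% of PCDHGB4. PCDHGA4, the other member that rose, went from 1.05 ± 0.162 to 1.64 ± 0.215 CPM (adjusted p = 0.00461, log2 change 0.64).

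PCDHGA9 (ENSG00000261934, 141402932 to 141512979) had the largest fall of the cluster. It stood at 0.660, 0.701, 0.591 and 0.414 CPM in wild-type and 0.143, 0.210, 0.251 and 0.258 CPM in knockout replicates 1, 2, 3 and 5, without overlap (log2 change -1.44, SE 0.30, adjusted p = 0.000379). PCDHGB7 fell from 0.952 ± 0.348 to 0.380 ± 0.155 CPM (adjusted p = 0.00192, log2 change -1.31) and PCDHGA10 from 1.13 ± 0.242 to 0.637 ± 0.154 CPM (-0.82, adjusted p = 0.00504). The smaller falls were those of PCDHGA2 (-0.97, adjusted p = 0.0463), PCDHGB2 (-0.67, 0.0374), PCDHGA6 (-0.62, 0.0243) and PCDHGB1 (-0.53, 0.00556). The groups overlapped in PCDHGA10, PCDHGA2 and PCDHGB2. Of the smaller falls, PCDHGA2 and PCDHGB2 lost their call without wild-type replicate 2, 3 or 5 (adjusted p from 0.0574 to 0.177) and without knockout replicate 1 or 3 (from 0.0813 to 0.130). PCDHGA2 also lost it without knockout replicate 5 (0.0794) and PCDHGB2 without knockout replicate 2 (0.0584). The call of PCDHGA6 was lost when wild-type replicate 2 (0.0719), wild-type replicate 5 (0.0765) or knockout replicate 2 (0.0738) was left out.

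PCDHGC3 (ENSG00000240184, 141475947 to 141512979), a C-type member, was the most abundant clustered protocadherin in both groups and did not pass. Wild-type replicates 1, 2, 3 and 5 stood at 5.80, 4.98, 5.70 and 5.36 CPM and knockout replicates at 4.63, 4.59, 4.95 and 5.75 CPM. The groups overlapped, with a log2 change of -0.13 (SE 0.10, adjusted p = 0.309). PCDHGB1 (ENSG00000254221), the next gamma member by CPM in wild-type cells, fell from 2.24, 2.65, 2.32 and 1.87 CPM to 1.65, 1.43, 1.57 and 1.64 CPM. The C-type members PCDHGC4 and PCDHGC5 lay below the filter, with 25 and 23 counts and with 19 and 33 counts over the wild-type and knockout groups. The C-type members of the alpha cluster therefore rose while no call was made for PCDHGC3, the only C-type gamma member that was tested.

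Of the other gamma members, PCDHGA1 did not pass, with all 4 knockout libraries (0.376 to 0.456 CPM) above all 4 wild-type libraries (0.253 to 0.307 CPM) and an adjusted p of 0.0809. It passed with library totals (0.0476), with upper-quartile scaling (0.0497) and with limma on the variance-stabilized values (0.0157). PCDHGA5 (-0.24), PCDHGB3 (-0.67), PCDHGB6 (-0.70) and PCDHGA11 (-0.26) did not pass. Blocking on the replicate number let PCDHGB6 pass (adjusted p = 0.0311), as did leaving out knockout replicate 5 (0.00631), and PCDHGB3 passed without knockout replicate 5 (0.0336). Both also passed with limma on the variance-stabilized values (0.0408 for PCDHGB6, 0.0497 for PCDHGB3) and with the lowest member count subtracted (0.0286 and 0.0296). The untested PCDHGA3, PCDHGA7 and PCDHGA12 had 26 and 61, 49 and 41, and 19 and 26 counts over the wild-type and knockout groups. PCDHGA3 was higher with the lenient filter (adjusted p = 0.0379, log2 change 1.05).

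**Figure D4:**
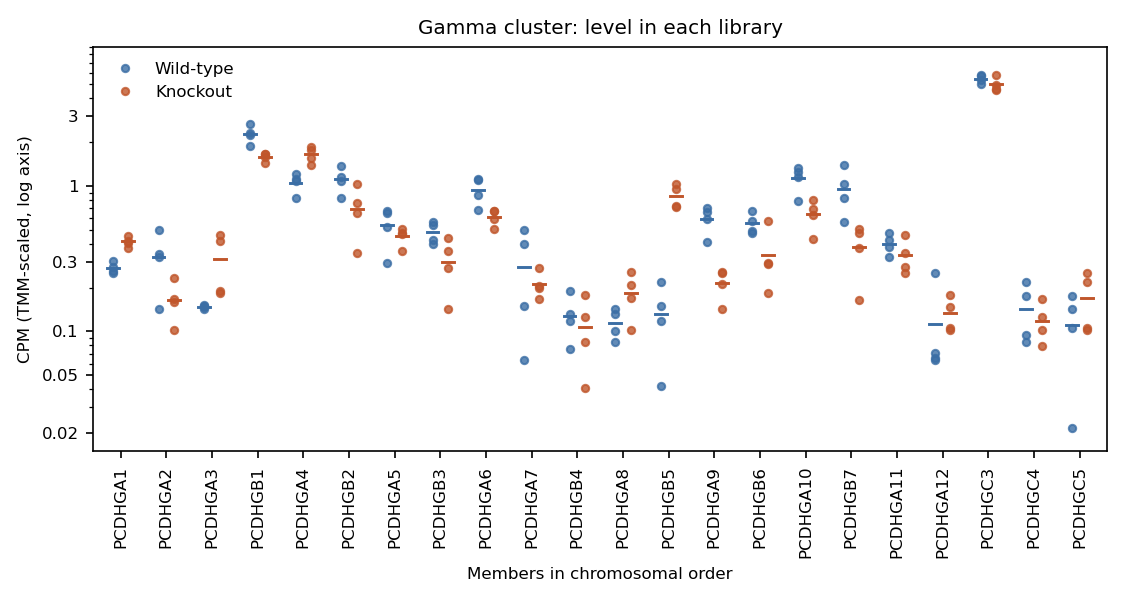
Level (CPM, logarithmic axis) of each gamma member in each library, in chromosomal order; points are libraries (blue wild-type, orange knockout) and short bars are group means. PCDHGC3 lies near 5 CPM in both groups, PCDHGB5 rises to 0.714 to 1.03 CPM in the knockout, and most other members overlap or lie slightly lower.

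Knockout replicate 5 was the highest of its group in the sums of all 3 clusters, with 8.28 CPM for alpha, 13.9 for beta and 17.3 for gamma.

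**Figure D5:**
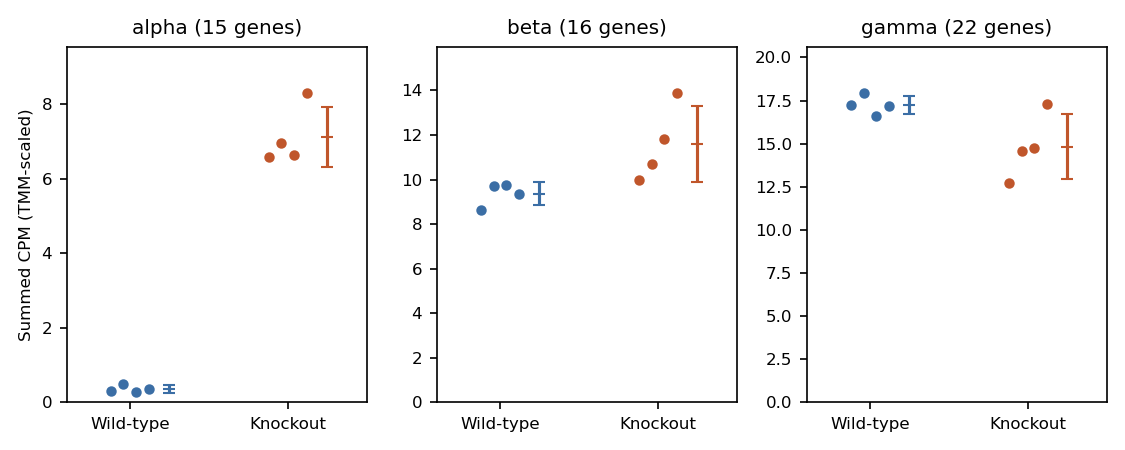
Summed level (CPM, axis from 0) of the alpha, beta and gamma members in each library; points are the libraries in the order of replicates 1, 2, 3 and 5 from left to right, and the bar with caps is the mean ± SD of 4. Alpha moves from 0.363 to 7.11 CPM, beta from 9.37 to 11.6 CPM, and the gamma groups overlap.

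To compare levels between genes, CPM were divided by the kilobases of exon that belong to 1 gene alone. On this level per length, wild-type cells were led by PCDHGC3 (1.68 ± 0.114 CPM per kb), PCDHGB1 (0.877 ± 0.124) and PCDHB2 (0.616 ± 0.116), with SD over n = 4, and the next, PCDHGB2 (0.428 ± 0.0873) and PCDHGA4 (0.389 ± 0.0598), lay within their spread of each other. Knockout cells were again led by PCDHGC3 (1.53 ± 0.165 CPM per kb), followed by PCDHB5 (0.772 ± 0.138), PCDHB16 (0.750 ± 0.0968) and PCDHAC1 (0.659 ± 0.0399). PCDHB5, PCDHB16 and PCDHAC1 did not differ beyond their spread. PCDHGA4 (0.608 ± 0.0796), PCDHGB1 (0.607 ± 0.0397), PCDHAC2 (0.55 ± 0.0391) and PCDHA13 (0.540 ± 0.129) came next and overlapped. Of the 8 leading genes in the knockout 3 were alpha members, a cluster with no member among the 8 leading genes of wild-type cells.

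Of 25 chromatin and looping factors known to act on these clusters or on genes like them, 2 rose, 11 fell and 12 did not pass, where 23.9% of all tested genes rose and 23.6% fell, and the list's median log2 change was -0.07 against 0.00 over all tested genes. NIPBL, which loads cohesin onto DNA, fell from 182 ± 8.33 to 119 ± 9.80 CPM (SD, n = 4 each), with a log2 change of -0.61 (adjusted p = 1.07e-08). REST, a repressor of neuronal genes that also binds within the alpha cluster's enhancer region, fell from 88.8 ± 5.10 to 57.5 ± 5.11 CPM (-0.63, adjusted p = 3.37e-08). CTCF, which binds the promoter element shown above, fell from 111 ± 8.05 to 86.7 ± 1.21 CPM (-0.36, adjusted p = 4.55e-06), and the cohesin subunit RAD21 from 543 ± 9.97 to 440 ± 18.2 CPM (-0.30, adjusted p = 1.37e-05). All 4, named for their small p-values, had knockout libraries below all wild-type libraries, as did 22.1% of all tested genes. Whether these levels bear on the clusters was not tested.

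Of 22 genes for partners of clustered protocadherin proteins or for their cleavage, 8 rose, 6 fell and 8 did not pass, with a median log2 change of -0.01. Over all tested genes 47.6% were called in either direction, 23.9% higher and 23.6% lower. CYFIP2, a subunit of the WAVE complex that controls actin, rose from 11.7 ± 0.959 to 24.9 ± 1.42 CPM (adjusted p = 4.43e-11, log2 change 1.09), and PTK2B, a kinase that protocadherin tails bind, from 0.627 ± 0.158 to 1.97 ± 0.145 CPM (1.66, adjusted p = 2.71e-07). ABI2, another subunit of the WAVE complex, fell from 118 ± 2.82 to 92.2 ± 2.85 CPM (-0.36, adjusted p = 7.16e-07), and AXIN1, a scaffold of WNT signalling, from 47.3 ± 1.76 to 35.9 ± 1.04 CPM (-0.40, adjusted p = 8.95e-07). The group values of each of these 4 genes, named for their small p-values, did not overlap, as was so for 43.4% of all tested genes.

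Of 27 genes that flank the clusters 26 were tested, of which 5 rose, 6 fell and 15 did not pass, near the 23.9% and 23.6% over all tested genes. Their median log2 change was 0.05. TAF7, which lies between the beta and gamma clusters, stood at 128 ± 7.0 and 125 ± 5.05 CPM (SD, n = 4 each, adjusted p = 0.678), and HDAC3, beyond the gamma cluster, at 97.0 ± 4.24 and 104 ± 5.47 CPM (adjusted p = 0.113). The largest changes among called flanking genes were those of 2 protocadherins outside the clusters. PCDH12 rose from 0.334 ± 0.186 to 1.18 ± 0.103 CPM (adjusted p = 9.58e-06, log2 change 1.84) and PCDH1 from 4.14 ± 0.840 to 13.4 ± 1.09 CPM (1.70, adjusted p = 4.02e-10). SPRY4 (0.41, adjusted p = 7.79e-08), RELL2 (0.39, 0.000416) and DIAPH1 (0.28, adjusted p = 0.000136) rose by less. The 6 that fell were GNPDA1, ZMAT2, TMCO6, NDFIP1, ARAP3 and DELE1, with log2 changes from -0.24 (GNPDA1) to -0.14 (DELE1). The pseudogenes within the clusters stayed at 19 counts or fewer in either group, and PCDHA14 was at 0 in each library.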

How the data were processed

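Stranded libraries of rRNA-depleted total RNA from 8 samples (4 wild-type, 4 knockout) were sequenced, per the labels' protocols. The deposited table holds raw counts per Ensembl gene, and a second one, also from the authors, holds their variance-stabilized values on a log2 scale. Tools listed in the submitters' processing notes are FastQC 0.11.7, STAR 2.6.0c, DESeq2 1.23.10, Subread 1.6.2 and featureCounts, with hg38. The sources used here do not give the annotation release, strand setting or treatment of overlapping and multi-mapping reads. The counts of the pseudogene EEF1A1P5 came to 99.7% of those of EEF1A1, so near-identical copies may each hold the same reads.

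Of 60646 identifiers 60333 matched a symbol table, and gene types and coordinates came from GENCODE 29. Counts were tested in R 4.3.3 with edgeR 4.0.16 (filterByExpr, TMM, robust quasi-likelihood fit, group alone, Benjamini-Hochberg over 19877 genes), and every adjusted p quoted is from it unless another setting is named. The procedure was tested on simulated data. Alternatives were upper-quartile scaling, library totals, DESeq2 1.42.0, lenient and strict filters, the replicate block, limma 3.58.1 on the variance-stabilized values, subtraction of each library's lowest alpha or gamma count, and leaving out each sample. Members and lists were chosen with earlier results of these data known. All called members were named, with values per sample for the 12 largest changes and the 2 most abundant members of each cluster, and the 4 smallest adjusted p of each context list, besides flanking genes. Replicate numbers 1, 2, 3 and 5 are shared by both groups. Deviations of same-numbered samples correlated at 0.376, 0.154, 0.153 and 0.391 over 13212 genes, all above 0.1, which the rule used here reads as pairing, known from the labels' numbers and these correlations alone. No 2 replicates agreed within sampling noise (chi-square per degree of freedom 3.41 to 18.4). Floors are 3 counts and intervals 95% exact binomial, both for counting error only.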

Additional observations from a re-analysis of the deposited data

Results flagged for a closer look

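In PCDHB14, 1 library stood apart from the other 3 of its group on both sides. Wild-type replicate 5 was at 1.28 CPM, where the others ran from 0.872 to 0.929 CPM, and knockout replicate 5 at 0.376 CPM, where the others ran from 0.210 to 0.230 CPM. Both are replicates with the number 5, and the log2 change of PCDHB14 kept its direction and stayed past the threshold in each alternative in which it was tested. Of 46 groups of 4 examined in this way 2 were picked out, and chance picks out about 1 in 20.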

How the results depend on the processing

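The counts of members called were 10 higher and 12 lower, where 23.9% and 23.6% of all tested genes were. With the lenient filter, which tested 49 members, 18 were higher and 12 lower, where 19.5% and 18.5% of all genes tested under it were. The alpha members added by that filter reached it through the knockout, so nothing is read from the larger count. With the strict filter (mean log2 CPM of at least 1), which left PCDHGC3 alone to test, 0 were higher and 0 lower. With DESeq2 14 were higher and 9 lower, with limma on variance-stabilized values 11 and 13, and with the lowest member count subtracted 10 and 13. Over all genes DESeq2 gave 4752 higher and 4735 lower of 27671, limma 4517 and 4611 of 19877, and the subtraction 4759 and 4701 of 19876. The replicate block gave 10 and 13, adding PCDHGB6 and changing no other member's call. Leaving out 1 library gave 10 to 12 higher and 9 to 13 lower. Calls of PCDHGA2, PCDHGB2 and PCDHGA6 were the only ones among the 22 to be lost in any alternative. PCDHGA2 and PCDHGB2 also lost theirs with either other scaling, and all 3 with DESeq2 (adjusted p = 0.117, 0.0605 and 0.0553). With limma on variance-stabilized values PCDHGA2 lost its call too (adjusted p = 0.0612). PCDHGA2 kept its call in 4 of the 14 alternatives that tested it, PCDHGB2 in 6 of 15 and PCDHGA6 in 11 of 15. The cause was not tested. No named value changed sign. The other scalings moved the median of all genes by 0.06 to 0.07 on the log2 scale. Log2 ratios of the summed levels without 1 library ran from 4.18 to 4.49 for alpha, 0.21 to 0.37 for beta and -0.30 to -0.15 for gamma. On this scale gamma moved less than beta with all libraries (-0.22 against 0.31), but more without knockout replicate 5 (-0.30 against 0.21). Tested members held 11 to 972 counts per group.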

Other observations

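The mix of members within each cluster can be read as each member's share of the cluster's counts in a library, which does not depend on the scaling between libraries. In the beta cluster PCDHB2 held 27.2 ± 5.49% of counts in wild-type and 10.1 ± 0.236% in the knockout (SD, n = 4 each). PCDHB16 went from 9.28 ± 3.0% to 29.6 ± 1.27% and PCDHB5 from 2.46 ± 0.437% to 22.6 ± 1.6%, so PCDHB5 moved from place 11 to place 2 among 16. PCDHB14 went from place 2 (10.7 ± 2.04%) to place 11 (2.22 ± 0.359%) and PCDHB11 from place 3 (10.5 ± 2.87%) to place 13 (1.42 ± 0.470%). In the gamma cluster PCDHGC3 held 31.7 ± 2.94% and 33.7 ± 2.05% and was in place 1 in both groups, while PCDHGB5 went from 0.761 ± 0.418% to 5.76 ± 0.643%, from place 18 to place 4 of 22. In the alpha cluster PCDHAC1, PCDHAC2 and PCDHA13 were in places 1 to 3 in both groups, although wild-type libraries held no more than 20 alpha counts each. These shares are a description, given without a test.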
